A study of Homo sapiens with 18 samples.

Results

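The genes described here encode the V1 sector of the vacuolar proton pump (V-ATPase), and were chosen by name: ATP6V1A, ATP6V1B2, ATP6V1C1, ATP6V1D, ATP6V1E1, ATP6V1F, ATP6V1G1 and ATP6V1H. These 8 genes were found among the 57820 gene identifiers of the deposited count table, and all 8 were among the 15307 genes with enough counts to be tested. RNA came from MDA-MB-231, an established human line of triple-negative breast cancer cells, labelled wild type, 72 hours after lipofection of siRNA. The study silenced RagC, the GTPase that holds the growth kinase complex mTORC1 on the lysosome, to ask which genes change when mTORC1 is repressed. A control siRNA (siCtrl) and 2 independent siRNAs against RagC (siRagC1 and siRagC2) had 6 libraries each, 18 in all, and silencing was transient and in 1 cell line. The labels call them biological replicates but do not say that cultures were separate, so each p-value measures only the spread among the libraries, which may be technical.

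The V-ATPase pumps protons into lysosomes and endosomes and so keeps them acidic. Its cytosolic V1 sector burns ATP and its membrane-bound V0 sector carries the protons. In V1, subunits A and B alternate in a ring whose A subunits hydrolyse ATP, D and F form the central rotor, E and G form the outer stalks that hold the ring still, and C and H join the stalks to V0 and govern whether the sectors stay together. V1 can detach from V0 and return, so pump activity is set by assembly as well as by subunit amount. At the lysosome the pump also works with the Ragulator and Rag GTPases in amino acid signalling to mTORC1, and many V-ATPase genes belong to the lysosomal gene network that TFEB drives through CLEAR elements, with GTCACGTGAC as the typical palindrome.

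The promoters are shown because TFEB, which the study's title names, acts through this motif. Of the 8 genes, 4 were found in the RefSeq promoter table used (GRCh38.p14): ATP6V1D, ATP6V1E1, ATP6V1F and ATP6V1G1. The 250 bases before the RefSeq start are printed for 3 of them, 5′ to 3′ on the gene's strand, with the palindrome (ATP6V1G1) or its form with 1 mismatch (ATP6V1D) in capitals; the ATP6V1F sequence holds neither and has no capitals.
ATP6V1G1, chr9:114587519-114587768, plus strand: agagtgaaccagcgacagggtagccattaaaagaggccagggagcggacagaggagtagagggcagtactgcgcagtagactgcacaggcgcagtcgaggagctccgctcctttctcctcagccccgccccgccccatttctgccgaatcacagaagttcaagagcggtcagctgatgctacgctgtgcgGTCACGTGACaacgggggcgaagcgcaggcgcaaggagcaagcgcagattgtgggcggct
ATP6V1D, chr14:67359805-67360054, minus strand: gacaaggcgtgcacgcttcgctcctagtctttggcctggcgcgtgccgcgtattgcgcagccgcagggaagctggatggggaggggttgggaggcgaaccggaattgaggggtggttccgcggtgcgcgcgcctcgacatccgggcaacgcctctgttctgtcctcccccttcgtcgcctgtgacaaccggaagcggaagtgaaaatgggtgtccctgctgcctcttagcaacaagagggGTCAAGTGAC
ATP6V1F, chr7:128862606-128862855, plus strand: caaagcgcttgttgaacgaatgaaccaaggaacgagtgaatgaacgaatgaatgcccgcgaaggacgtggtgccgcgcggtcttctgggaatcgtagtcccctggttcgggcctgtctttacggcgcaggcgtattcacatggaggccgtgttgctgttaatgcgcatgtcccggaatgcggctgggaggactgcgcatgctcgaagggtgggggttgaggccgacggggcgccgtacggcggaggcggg
GTCACGTGAC, searched on both strands (it reads the same on each), lay in the ATP6V1G1 promoter from base -60 to base -51 before the start. Of 35116 promoters of the same length, 0.308% held it, and 1.77% held it with at most 1 mismatch. ATP6V1D had 1 mismatch, C5A counted from the 5′ end of the motif, at bases -10 to -1. The shorter forms TCACGTGA and CACGTG, which lie within the palindrome, were in 0.854% and 6.34% of promoters and, among these 4 genes, only in ATP6V1G1. No window of the ATP6V1F promoter came within 3 mismatches of the palindrome (the fewest was 4), and the ATP6V1E1 promoters of both annotated starts had at least 2. A match is a stretch of letters and not a measured binding site.

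Libraries held 14.8 M to 71.6 M counts, and levels are given as CPM (counts scaled to a common library size with TMM factors), as mean ± SD over 6 libraries. RRAGC, which encodes RagC, checks the labels: it ran from 60.6 to 67.9 CPM (median 61.5) with siCtrl, from 12.3 to 31.9 (median 24.3) with siRagC1 and from 19.3 to 40.8 (median 26.1) with siRagC2, with no overlap with siCtrl. VIM and CD44, which mark this mesenchymal line, averaged 4412 and 936 CPM, against 0.046 for ESR1, 1.13 for CDH1, 16.4 for EPCAM and 98.9 for ERBB2. Among markers of other cells, PTPRC averaged 0.398 CPM, CD14 0.579, VWF 0.086, CD3E 0.004 and FOXA1 0.032, while GATA3 stood at 8.42. Library codes start with D1103 (replicates 1 and 2 in all groups) or D1221 (replicates 3 to 6). The labels do not say what these code series stand for, and the fit carries a term for them. A level in bulk RNA does not separate fewer cells making an RNA from less RNA per cell.

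In the edgeR fit over all 18 libraries, no V1 gene passed the test for a change with either siRNA. No difference in that fit exceeded 10.9% in size. Other fits, given below, called ATP6V1F with siRagC1, or ATP6V1B2 and ATP6V1C1 with siRagC2 in D1103 alone. With siRagC1, 0 of 8 subunit genes passed the edgeR quasi-likelihood test (Benjamini-Hochberg adjustment over the 15307 genes, threshold 0.05), where 2.04% of all tested genes passed. With siRagC2, 0 of 8 passed, where 3.23% of all genes did. At an unadjusted p under 0.05 there were 2 and 3 members, or 25.0% and 37.5% of the 8, beside 17.1% and 18.5% of all genes. The median log2 fold change of the 8 was 0.06 with each siRNA, beside 0.01 and 0.00 for all genes, and 6 of 8 had a positive value in each comparison, beside 51.7% of all genes in both. No member's siRNA libraries lay wholly apart from its siCtrl libraries, while 0.83% and 1.14% of all genes did so with siRagC1 and siRagC2. The comparisons share their siCtrl libraries, so their values for a member are not independent of each other.

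**Figure D1:**
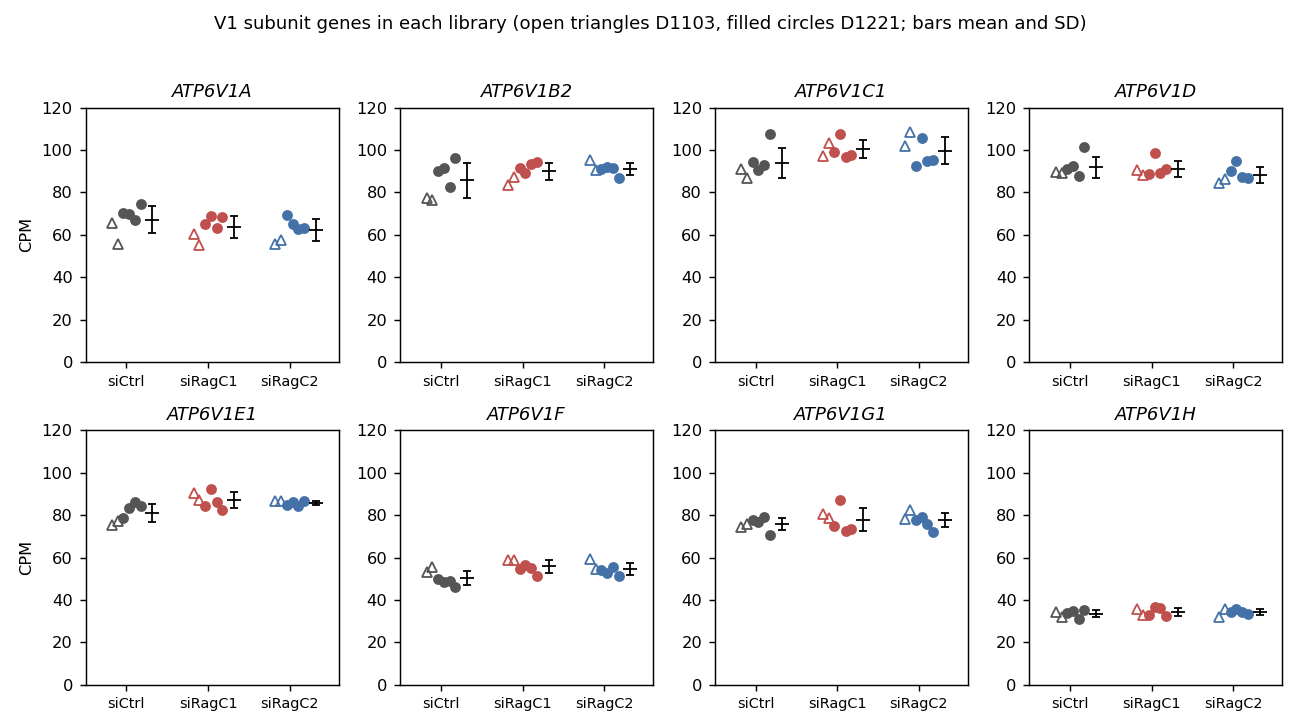
Level of each V1 gene in each library, in CPM on an axis from 0, by siRNA; open triangles are D1103 libraries, filled circles D1221 libraries, and bars the mean and SD of 6. In each panel the 3 groups overlap, and ATP6V1H, at 31.1 to 36.9 CPM, is the lowest gene.

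The ring of the motor is made of the A and B subunits. ATP6V1A (ENSG00000114573, chromosome 3), the catalytic subunit, ran from 55.6 to 74.6 CPM with siCtrl (median 68.5), from 55.3 to 68.7 with siRagC1 (median 64.1) and from 55.8 to 69.3 with siRagC2 (median 62.9). The ranges covered much the same values, and the lowest library of every group was a D1103 library. On the log2 scale the difference from siCtrl was -0.08 ± 0.05 (SE) for siRagC1 (edgeR adjusted p = 0.390) and -0.11 ± 0.05 for siRagC2 (adjusted p = 0.203, unadjusted 0.0279). It was higher than the same-numbered control in 0 of 6 siRagC1 libraries and in 1 of 6 siRagC2 libraries. Numbers did not count as pairs for siRagC1 with siCtrl, as given below. Such tallies, here and for other genes, are therefore descriptions, and their share over all genes was not counted. In percent, the difference with siRagC2 was -7.21 (95% interval -13.1 to -0.892).

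ATP6V1B2 (ENSG00000147416, chromosome 8), the widespread form of the B subunit that shares the nucleotide sites with A, ran from 76.2 to 96.2 CPM with siCtrl (median 86.3). With siRagC1 it ran from 83.6 to 94.2 (median 90.3), and with siRagC2 from 86.8 to 95.4 (median 91.2). The siCtrl libraries were the most spread, with a coefficient of variation of 9.44%, against 4.46% and 3.05%, and both low control values were D1103 libraries. The log2 fold changes were 0.07 ± 0.05 and 0.10 ± 0.05 (adjusted p = 0.456 and 0.277). The catalytic and the nucleotide-binding partner thus had fitted values of opposite sign with both siRNAs, neither past the threshold.

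The rotor subunits D and F turn inside this ring. ATP6V1F (ENSG00000128524, chromosome 7) came nearest to the threshold of the 8. It ran from 46.3 to 55.7 CPM with siCtrl (median 49.4), from 51.1 to 59.1 with siRagC1 (median 55.8) and from 51.1 to 59.2 with siRagC2 (median 54.4). Each siRNA group overlapped siCtrl through the 2 high D1103 controls (53.1 and 55.7 CPM). The D1221 controls, at 46.3 to 49.7 CPM, lay below all 12 siRNA libraries. The log2 fold change was 0.15 ± 0.04 with siRagC1 (edgeR adjusted p = 0.0505, unadjusted 0.00103), a difference of 10.9% (95% interval 4.80 to 17.4), and the gene was higher in 6 of 6 same-numbered libraries. With siRagC2 it was 0.11 ± 0.04 (adjusted p = 0.113), or 8.24% (2.23 to 14.6), higher in 5 of 6.

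Other tools placed ATP6V1F with siRagC1 on the other side of the threshold: it passed with DESeq2 (0.14, adjusted p = 0.00906; 5.08% of all genes called) and with limma-voom (0.15, adjusted p = 0.0387; 3.18% called). Without siRagC1 replicate 6 it also passed with edgeR (0.17, adjusted p = 0.0188; 5.87% called). Over all alternatives run its adjusted p with siRagC1 lay between 0.00906 and 0.658, and its log2 fold change between 0.12 and 0.17. With siRagC2 neither DESeq2 (adjusted p = 0.0640; 6.57% of all genes called) nor limma-voom (adjusted p = 0.0935; 4.84% called) called ATP6V1F or any other member.

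ATP6V1F shares 187 exon bases, 23.7% of its exons in GENCODE 29, with KCP on the opposite strand, and no source used here gives the strand setting of the counting. KCP, which encodes a secreted protein with cysteine-rich repeats, rose from 0.473 ± 0.165 CPM to 1.96 ± 0.874 with siRagC1 and 2.10 ± 0.931 with siRagC2 (2.05 ± 0.23 and 2.11 ± 0.23 on the log2 scale, edgeR adjusted p = 0.000129 and 6.4e-05). Beside it, mean ATP6V1F went from 50.4 ± 3.40 CPM to 55.9 ± 2.96 and 54.5 ± 2.74. Its part in the ATP6V1F values was not tested. KCP was chosen for its overlap, and reads within the shared bases cannot be assigned to either gene without strand.

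ATP6V1D (ENSG00000100554, chromosome 14), the rotor's long shaft, ran from 87.8 to 101.5 CPM with siCtrl (median 90.4), from 88.2 to 98.4 with siRagC1 (median 89.8) and from 84.3 to 94.6 with siRagC2 (median 87.0). All groups centred near the same value, each with 1 library above the rest. The log2 fold changes were -0.01 ± 0.04 and -0.06 ± 0.04 (adjusted p = 0.902 and 0.485), and the sign with siRagC1 turned in D1103 alone and without siCtrl replicate 6. It shares 269 exon bases, 6.33% of its exons, with EIF2S1 on the opposite strand, which encodes the alpha subunit of translation factor eIF2. EIF2S1 stood at 191 ± 17.3, 161 ± 21.8 and 173 ± 12.9 CPM in the 3 groups and fell with siRagC1 (by 0.25 ± 0.05 on the log2 scale, edgeR adjusted p = 0.00809), and had -0.14 ± 0.05 with siRagC2 (adjusted p = 0.101). Its part in the ATP6V1D counts was not tested.

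The outer stalks pair an E with a G subunit. ATP6V1E1 (ENSG00000131100, chromosome 22) ran from 75.5 to 86.3 CPM with siCtrl (median 81.2), from 82.4 to 92.3 with siRagC1 (median 86.6) and from 84.4 to 86.8 with siRagC2 (median 86.3). The siRagC2 libraries lay closest together of any member in any group, with a coefficient of variation of 1.16%, at the upper end of the control range. The log2 fold change was 0.11 ± 0.04 with siRagC1 (adjusted p = 0.173, unadjusted 0.0159; higher in 4 of 6 same-numbered libraries) and 0.09 ± 0.04 with siRagC2 (adjusted p = 0.265, unadjusted 0.0481; 5 of 6).

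ATP6V1G1 (ENSG00000136888, chromosome 9), the gene with the palindrome printed above, ran from 70.7 to 79.0 CPM with siCtrl (median 76.2), from 72.4 to 87.4 with siRagC1 (median 76.8) and from 72.3 to 82.4 with siRagC2 (median 77.8). The medians differed by less than the spread within any group, and 1 siRagC1 library, replicate 4, stood at the top. The log2 fold change was 0.04 ± 0.05 with both siRNAs (adjusted p = 0.708 and 0.746). In percent the 95% intervals ran from -3.77 to 10.01 with siRagC1 and from -4.07 to 9.75 with siRagC2.

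The subunits that couple V1 to V0 are C and H. ATP6V1C1 (ENSG00000155097, chromosome 8), which lets go when the sectors part, ran from 86.6 to 107.6 CPM with siCtrl (median 91.8), from 96.8 to 107.5 with siRagC1 (median 98.3) and from 92.5 to 108.4 with siRagC2 (median 98.5). In the controls, 5 libraries lay at or below 94.4 CPM and replicate 6 alone reached the top of the siRNA ranges. The log2 fold changes were 0.10 ± 0.05 and 0.09 ± 0.05 (adjusted p = 0.357 and 0.386). ATP6V1H (ENSG00000047249, chromosome 8), which is needed for a working pump and silences ATP hydrolysis in free V1, ran from 31.1 to 35.2 CPM with siCtrl (median 34.1), from 32.3 to 36.9 with siRagC1 (median 34.3) and from 31.97 to 35.95 with siRagC2 (median 34.4). The 3 groups were nearly superimposed, with log2 fold changes of 0.04 ± 0.05 in both comparisons (adjusted p = 0.727 and 0.762).

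**Figure D2:**
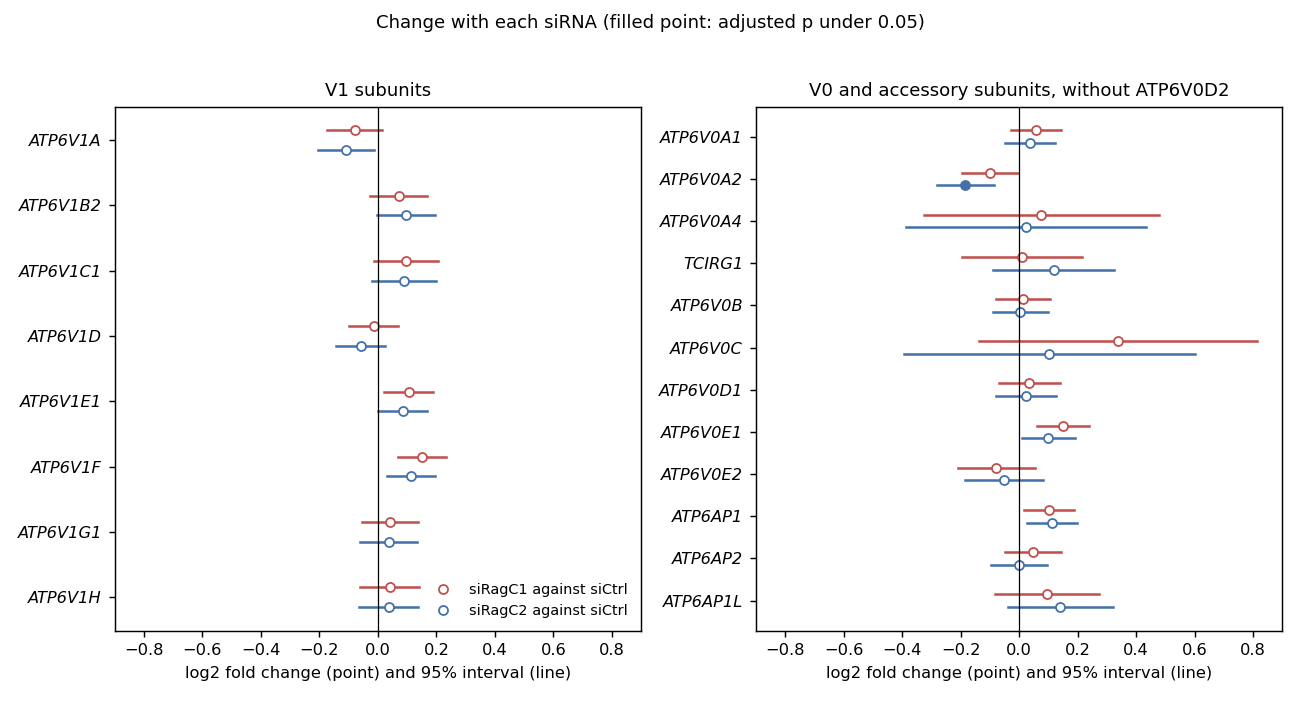
Log2 fold change against siCtrl, with its 95% interval, for the V1 genes (left) and for 12 of the 13 V0 and accessory genes (right). ATP6V0D2, at 1.36 and 0.87, was left out of the plot. Red is siRagC1, blue siRagC2, and a filled point passed the edgeR test. All V1 points are open and lie between -0.11 and 0.15.

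The precision limits what could have been missed. The SE of the members' log2 fold changes was 0.04 to 0.05, below the median of 0.07 over all genes in each comparison. The 95% intervals reached from -11.4% (ATP6V1A) to 17.4% (ATP6V1F) with siRagC1 and from -13.1% (ATP6V1A) to 14.8% (ATP6V1C1) with siRagC2. Counts behind these values ran from 512 (ATP6V1H) to 6689 (ATP6V1C1) per library. As a summed level, the 8 genes stood at 579 ± 23.6 CPM with siCtrl, 600 ± 18.2 with siRagC1 and 594 ± 12.5 with siRagC2, over ranges of 548 to 616, 591 to 637 and 575 to 611.

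With siRagC2, deviations of same-numbered libraries from their group means correlated at 0.116 to 0.492, so the fit with a block for that number is given beside it. These correlations hold the difference between the code series, and with the series removed too they ran from -0.0382 to 0.204. That fit called 986 genes in place of 495, and 0 of the 8 members. Its 986 genes were 6.44% of those tested. With siRagC1 against siCtrl, where numbers did not count as pairs, the block called 1 member, ATP6V1F (5.64% of all genes called).

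The siRNAs against RagC differed little from each other over these genes. Between siRagC1 and siRagC2, 0 of 8 members passed edgeR's test, and 0 did so at an unadjusted p under 0.05, a mark that 7.75% of all genes reached. No gene passed the adjusted test (0.0%). DESeq2 and limma-voom also called 0 members, with 0.189% and 0.0% of all genes called. The CPM ranges of both siRNA groups overlapped for every member, and 0.229% of all genes had ranges apart. The log2 difference, siRagC1 minus siRagC2, lay between -0.02 (ATP6V1B2) and 0.05 (ATP6V1D). Its 95% intervals spanned -0.12 (ATP6V1B2) to 0.13 (ATP6V1D) at the extremes, which bounds the differences these libraries could have missed.

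Fitted within each code series, some members gave unlike values in D1103 and D1221. For ATP6V1B2 with siRagC2, D1103, with 2 libraries a group, gave a log2 fold change of 0.27 ± 0.07, and D1221, with 4, gave 0.00 ± 0.05. ATP6V1C1 gave 0.25 ± 0.08 and 0.01 ± 0.06, and ATP6V1E1 0.18 ± 0.06 and 0.04 ± 0.05. In these 3 genes the D1103 value was the larger with both siRNAs. For siRagC1 the values were 0.15 and 0.03 for ATP6V1B2, 0.18 and 0.06 for ATP6V1C1, and 0.21 and 0.05 for ATP6V1E1.

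ATP6V1F and ATP6V1A gave like values in both series. ATP6V1F had 0.12 ± 0.07 and 0.17 ± 0.05 with siRagC1, and 0.07 ± 0.07 and 0.14 ± 0.05 with siRagC2, for D1103 and D1221 in that order. ATP6V1A had -0.07 ± 0.08 and -0.09 ± 0.06 with siRagC1, and -0.10 ± 0.08 and -0.11 ± 0.06 with siRagC2. ATP6V1D ran from -0.07 to 0.00, ATP6V1G1 from 0.01 to 0.10, and ATP6V1H from 0.04 to 0.05 over both siRNAs and series.

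**Figure D3:**
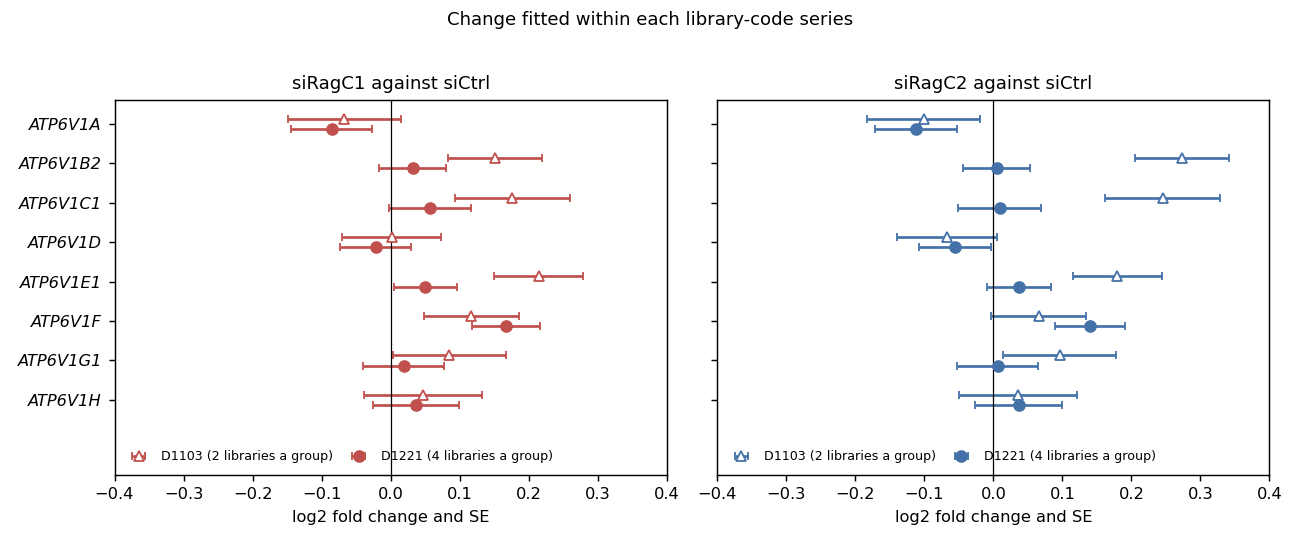
Log2 fold change against siCtrl with its SE, fitted within series D1103 (open triangles) and D1221 (filled circles), for siRagC1 (left) and siRagC2 (right). With siRagC2, ATP6V1B2 and ATP6V1C1 sit at 0.27 and 0.25 in D1103 and at 0.00 and 0.01 in D1221.

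The difference between series was itself tested. For ATP6V1B2 with siRagC2 it was 0.27 ± 0.08 (D1103 minus D1221; edgeR unadjusted p = 0.00468, adjusted p = 0.735), and for ATP6V1C1 0.24 ± 0.10 (unadjusted p = 0.0333, adjusted p = 0.735). For ATP6V1E1 with siRagC1 it was 0.16 ± 0.08 (unadjusted p = 0.0523, adjusted p = 1.00). No gene of the 15307 passed the adjusted test of this difference, while 6.66% of genes with siRagC2 and 2.03% with siRagC1 had an unadjusted p under 0.05. From the D1103 libraries alone, edgeR called 2 of 8 members with siRagC2, ATP6V1B2 (adjusted p = 0.0137) and ATP6V1C1 (adjusted p = 0.0264), where 7.10% of all genes were called. From D1221 alone it called 0 of 8 with either siRNA, where 1 gene of 15016 was called in each comparison (0.00666%). Silencing of RRAGC also differed in size by series: its log2 fold change was -2.04 and -1.12 with siRagC1, and -1.65 and -0.95 with siRagC2, in D1103 and D1221 (adjusted p of the difference 1.00 and 0.735). Its part in the difference between series was not tested.

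Levels also differed between the code series themselves, a comparison chosen after the values were seen. ATP6V1A averaged 58.4 ± 4.09 CPM over the 6 D1103 libraries and 67.3 ± 3.57 over the 12 of D1221 (log2 difference 0.21 ± 0.04, edgeR adjusted p = 0.000256). ATP6V1F went the other way, from 56.8 ± 2.63 to 52.0 ± 3.23 CPM (-0.13 ± 0.03, adjusted p = 0.00404). These 2 of 8 members passed, beside 48.8% of all genes. ATP6V1B2, at 85.1 ± 7.44 and 90.8 ± 3.52 CPM, was just outside the threshold (0.10 ± 0.04, adjusted p = 0.0506). With RLE scaling edgeR called 3 members in place of 2, but the share of all genes was not counted for that scaling.

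The log2 ratio of ATP6V1F to ATP6V1A, within each library, sets the rotor gene against the catalytic gene. It averaged -0.41 ± 0.24 with siCtrl, -0.18 ± 0.18 with siRagC1 and -0.19 ± 0.17 with siRagC2. Over all libraries the groups overlapped, since the D1103 controls reached 0.00. Within D1221, the controls lay between -0.69 and -0.45, siRagC1 between -0.42 and -0.20 and siRagC2 between -0.36 and -0.18, without overlap with siCtrl. This pair was singled out after its values were seen, and in D1221 it was 1 of 2 such ratios with siRagC1 and of 4 with siRagC2, out of 28 (7.14% and 14.3%). CPM ratios compare change within a library and are not a ratio of subunit amounts.

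Levels between genes are compared per length, as mean CPM per kb of GENCODE 29 exons in siCtrl cells, which need not be the annotation behind the counts. ATP6V1F (63.9 ± 4.31) and ATP6V1G1 (58.0 ± 2.22) were highest and overlapped, followed by ATP6V1E1 (25.2 ± 1.35) and ATP6V1D (21.6 ± 1.16), which also overlapped. ATP6V1C1 (16.04 ± 1.23) lay below these and above ATP6V1A (13.1 ± 1.25), which overlapped ATP6V1B2 (10.96 ± 1.03). ATP6V1H was lowest at 6.58 ± 0.324, and the order was the same with both RagC siRNAs.

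The order of the lower genes rests on the length chosen. Per kb of the longest coding transcript, ATP6V1B2 moved above ATP6V1C1 and ATP6V1A (29.8 ± 2.81 against 16.7 ± 1.29 and 14.6 ± 1.399), and ATP6V1H (14.2 ± 0.697) overlapped ATP6V1A. ATP6V1F (70.9 ± 4.78) and ATP6V1G1 (70.1 ± 2.69) kept the highest values, with ATP6V1E1 at 57.8 ± 3.10 and ATP6V1D at 49.8 ± 2.68. RNA levels per length do not give the ratio of the subunits in the protein complex.

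Several V1 subunits have a second gene used in particular tissues, such as kidney intercalated cells, testis or brain. ATP6V1B1, the B form of acid-secreting kidney cells, gave 137 counts over the 18 libraries, a mean of 0.266 CPM. ATP6V1C2 gave 109 counts (0.191 CPM), ATP6V1G3 49 and ATP6V1G2 4. None of these 4 passed the count filter. ATP6V1E2, known from testis, was the exception at 5.25 ± 0.479 CPM: it made up 5.97% ± 0.951 of the summed E1 and E2 CPM with siCtrl, 5.64% ± 0.400 with siRagC1 and 5.94% ± 0.287 with siRagC2 (SD, n = 6). Its log2 fold changes of 0.02 ± 0.09 and 0.07 ± 0.09 missed the threshold (adjusted p = 0.947 and 0.732).

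**Figure D4:**
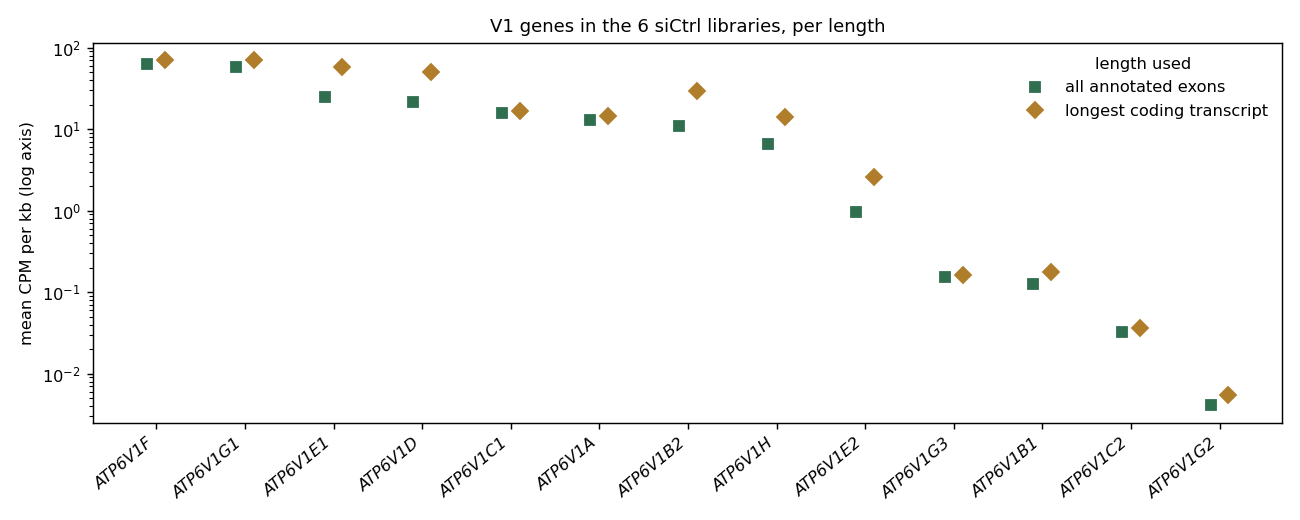
Mean CPM per kb in the 6 siCtrl libraries, on a log axis, for the V1 genes and their tissue-restricted paralogs, with the length of all annotated exons (squares) or of the longest coding transcript (diamonds). The 8 V1 genes lie at or above 6.58, ATP6V1E2 at 0.972 or 2.59, and the other paralogs below 0.2.

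Processed pseudogenes could have drawn counts from E1 and G1. The E1 pseudogene ATP6V1E1P1 held 9 counts over the 18 libraries and ATP6V1G1P4 held 8, with 0 for the other 4 annotated G1 pseudogenes. No source used here says how reads that map to several places were counted.

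In the membrane sector, whose c ring carries the protons, 13 V0 and accessory genes were tested. With siRagC1, 1 was higher and 0 lower (1.41% and 0.627% of all genes), and with siRagC2 1 was higher and 1 lower (1.87% and 1.36% of all genes). Their median log2 fold changes were 0.06 and 0.04. DESeq2 called these same genes and, with siRagC1, also ATP6V0E1, while limma-voom called 1 and 2 genes, as edgeR did. The higher gene was ATP6V0D2, the form of the d subunit known from osteoclasts, whose d subunit couples the V1 rotor to the c ring. It had 1.71 to 4.14 CPM with siCtrl (median 2.17), 3.60 to 10.98 with siRagC1 (median 5.37) and 3.497 to 5.68 with siRagC2 (median 4.53). Each siRNA group overlapped siCtrl, and the highest values were D1103 libraries in every group. Its log2 fold changes were 1.36 ± 0.16 and 0.87 ± 0.16 (edgeR adjusted p = 0.000129 and 0.00631), and it was higher in 6 of 6 same-numbered libraries each time. ATP6V0A2, a form of the a subunit through which protons pass, fell with siRagC2 (50.3 ± 3.37 to 44.3 ± 3.76 CPM, -0.18 ± 0.05, adjusted p = 0.0334). With siRagC1 it had -0.10 ± 0.05 (adjusted p = 0.276). ATP6V0C, a gene of the c ring, held only 3 to 40 counts per library (0.202 to 0.669 CPM), where ATP6V0B had 73.3 to 91.0 CPM. Its log2 fold changes, 0.34 ± 0.23 with siRagC1 and 0.10 ± 0.24 with siRagC2, were too imprecise to tell whether it changed. Exon overlaps and pseudogenes were looked for only with the V1 genes. Whether reads of ATP6V0C were lost in counting was not tested, so its low count need not mean little RNA.

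Of 14 genes listed for assembly and regulation of the pump, among them the RAVE-type factors DMXL1, DMXL2, WDR7 and ROGDI that help V1 rejoin V0, 13 were tested. With siRagC1 0 passed with edgeR, DESeq2 or limma-voom, where 2.04%, 5.08% and 3.18% of all genes did. In edgeR 3 of the 13 (23.1%) had an unadjusted p under 0.05, beside 17.1% of all genes. With siRagC2 1 was higher and 0 were lower with each of these tools, where 3.23%, 6.57% and 4.84% of all genes passed. That gene was TMEM9, a membrane protein of lysosomes (31.6 ± 2.04 CPM with siCtrl, 36.2 ± 1.83 with siRagC2; 0.19 ± 0.05, edgeR adjusted p = 0.0331), with 0.03 ± 0.05 for siRagC1 (adjusted p = 0.768). The list's median log2 fold changes were -0.03 and -0.02. The D1221 libraries alone, and the fit with no series term, called 0 genes of either list with either siRNA, and with no filter ATP6V0A2 and TMEM9 were no longer called. The D1103 libraries alone with siRagC2 called neither of those, and called ATP6V0D2 and, of the assembly list, DMXL2, OXR1 and TBC1D24 (2 higher and 1 lower).

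The 8 genes did not all vary together from library to library. The mean of each group within each code series was removed first. The 2 D1103 libraries of a group then mirror each other, so the 18 points are not all free. Pearson's r over the 18 libraries had a median of 0.29 over the 28 member pairs, of which 20 were positive. Over all pairs of the 11013 tested genes with a mean of at least 5 CPM the median was 0.00. The pair most alike was ATP6V1C1 with ATP6V1D (r = 0.81, Spearman's rho 0.44), where r was 0.61 without the 2 libraries farthest from the median of ATP6V1C1. By r, ATP6V1D was also the closest match of ATP6V1A (0.57, rho 0.73), ATP6V1B2 (0.44, rho 0.20) and ATP6V1H (0.64, rho 0.63). Leaving out the 2 libraries farthest from the median of 1 gene of the pair gave r of 0.72, -0.18 and 0.56 in that order. The match of ATP6V1B2 thus rested on few libraries. ATP6V1E1 and ATP6V1G1, the partners of the outer stalk, were each other's closest match (0.50, rho 0.25). ATP6V1F came nearest to ATP6V1G1 (0.46, rho 0.33). With 2 libraries left out in the same way, r was 0.31 and 0.27 for these pairs. The least alike were ATP6V1B2 and ATP6V1G1 (-0.49). The points share library and depth, so these values are descriptions and carry no test.

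**Figure D5:**
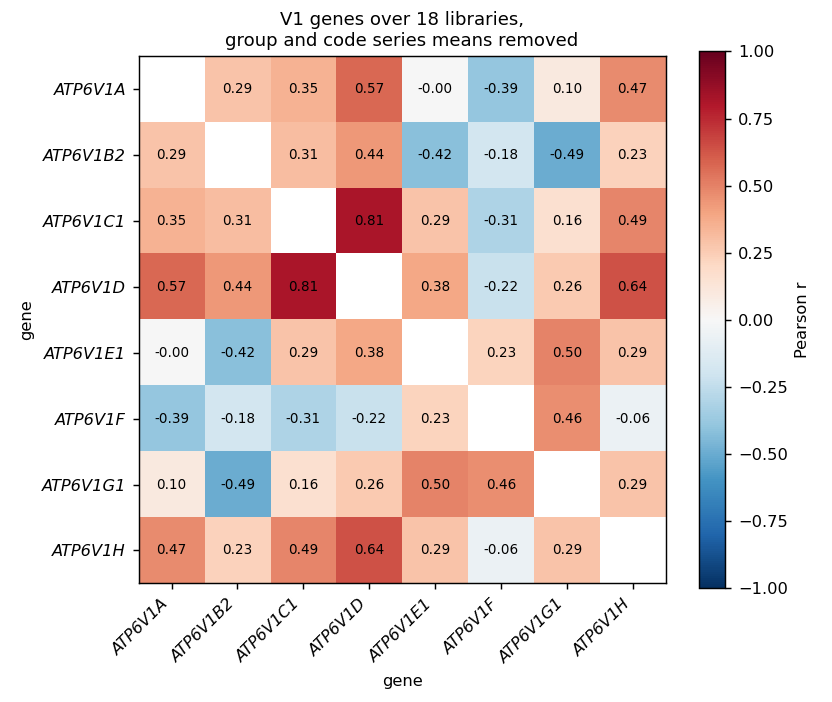
Pearson's r between V1 genes over the 18 libraries, from log2 CPM with the mean of each group within each code series removed. Red is positive and blue negative. ATP6V1A, ATP6V1C1, ATP6V1D and ATP6V1H are positive with one another, at 0.35 to 0.81, and ATP6V1F is negative with each of them.

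The mean profile of the 8 genes, centred on code series, was compared over the 18 libraries with 11005 other genes of at least 5 CPM. The highest Pearson's r values were those of ADH5, an alcohol dehydrogenase that handles formaldehyde adducts (r = 0.93), EXT2, an enzyme of heparan sulfate synthesis (0.92), LAMTOR3, a Ragulator subunit that docks the Rag GTPases on lysosomes (0.92), TMEM181 (0.91) and SCARB2, a lysosomal membrane protein (0.89). At the other end were HAUS5, a subunit of the augmin complex of the spindle (-0.94), DNAJC11, a mitochondrial protein (-0.92), and MBD1, a protein that binds methylated DNA (-0.91). Without the 2 libraries farthest from the median of the profile, r for these 8 genes was 0.79 to 0.92 at the high end and -0.87 to -0.83 at the low end. They were picked as extremes among 11005, the points share library and depth, and r carries no test. With either siRNA these 8 genes also missed the threshold, at adjusted p of 0.168 or more: LAMTOR3 had 0.17 ± 0.06 and 0.12 ± 0.07, and SCARB2 0.11 ± 0.05 with each.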

How the data were processed

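Sequencing covered RNA from MDA-MB-231 at 72 hours of silencing, with 500 ng of total RNA used for each library, per the labels. A table of raw gene counts for 18 libraries was deposited; per the submitters' processing notes, cutadapt 0.6.2 and STAR 2.7.6a were used on GRCh37/hg19. No source used here states the counting tool, its strand setting or its annotation. Of 57820 identifiers, 51996 had a symbol. The 8 members and the lists (40 genes, all matched) were chosen with earlier results of these data known.

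Groups came from the sample titles and the code series from the library codes. The fit used edgeR 4.0.16 under R 4.3.3 (filterByExpr, TMM scaling, robust quasi-likelihood F test) with code series and group over all 18 libraries, and p-values were adjusted over 15307 genes at a threshold of 0.05. The procedure was tested on simulated data, with changes larger than any fitted to a member over all 18 libraries. Named were the members, RRAGC, the tissue-restricted paralogs, list genes past the threshold, and the 5 most and 3 least alike genes; KCP and EIF2S1 were added for their exon overlap. Correlations used log2 CPM with a prior count of 2. Alternatives were RLE factors, no filter, DESeq2 1.42.0, limma-voom (limma 3.58.1), a replicate block, a fit without the series term, each series alone and each library left out. Same-numbered libraries counted as pairs where every correlation of their deviations exceeded 0.1, as for siRagC2 with siCtrl (0.116 to 0.492) and siRagC1 with siRagC2 (0.221 to 0.582). These deviations are from group means only. With the mean of each group within each code series removed instead, the correlations ran from -0.0382 to 0.204 and from 0.0439 to 0.263. For siRagC1 with siCtrl, not counted as pairs, they then ran from -0.0745 to 0.299. With the series removed, no comparison exceeded 0.1 in every replicate. No 2 libraries of a group were duplicates: their counts differed by 2.88 to 81.6 times the counting variance. Isoforms and protein levels were not analysed here.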

Additional observations from a re-analysis of the deposited data

Results flagged for a closer look

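In 27 sets of 6 libraries (the 8 members and RRAGC in the 3 groups), Dixon's ratio flagged 4 single libraries, and chance flags about 1 set in 20. ATP6V1C1 stood at 107.6 CPM in siCtrl replicate 6, above the other 5 controls, and ATP6V1D stood at 101.5 CPM in that same library. ATP6V1D stood at 98.4 CPM in siRagC1 replicate 4, above the other 5 siRagC1 libraries. RRAGC stood at 67.9 CPM in siCtrl replicate 1, above the other 5 controls.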

How the results depend on the processing

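None of the 8 members was called between siRagC1 and siRagC2 under any alternative run. With siRagC1, 1 member, ATP6V1F, was called in place of 0 by DESeq2, by limma-voom, with the replicate block (adjusted p = 0.0249; 5.64% of all genes called) and without siRagC1 replicate 6; leaving out 1 library gave 0 to 1 members. With siRagC2, D1103 libraries alone called 2 members, and each library left out gave 0. Counts over all genes moved far more. With siRagC1, 312 genes became 554 in D1103, 1 in D1221, 778 with DESeq2, 487 with limma-voom, 799 with no filter, 7 with no series term, 864 with the replicate block and 78 to 893 with 1 library left out. With siRagC2, 495 became 1149 in D1103, 1 in D1221, 1005 with DESeq2, 843 with no filter, 19 with no series term, 986 with the replicate block and 197 to 644 with 1 library left out. Between the siRNAs, 0 became 231 in D1103, 29 with DESeq2, 219 with no filter and 0 to 78 with 1 library left out. The series-alone fits have fewer libraries; the cause of the other shifts was not tested. Numbers were not taken as pairs for siRagC1 with siCtrl, since replicate 4 correlated at 0.0765 (the others up to 0.61).

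RRAGC with siRagC2 had -0.95 in D1221 alone (adjusted p = 0.0553), and with no filter its difference between the siRNAs, -0.23, passed (adjusted p = 0.0433). Of the members' log2 fold changes, none of them called, those that turned sign were small. ATP6V1D with siRagC1 had 0.0021 in D1103 and -0.034 to 0.012 with 1 library left out. Between the siRNAs, ATP6V1B2 had 0.026 in D1221 and -0.045 to 0.0061 with 1 library left out, and ATP6V1C1 -0.069 in D1103 and -0.016 to 0.037. ATP6V1G1 had -0.012 in D1103, -0.0017 with limma-voom and -0.034 to 0.022 with 1 library left out. ATP6V1H had -0.0018 in D1221, -0.0034 with limma-voom and -0.016 to 0.023 with 1 library left out. Of 160 alternative values for the members in each comparison, 154 kept sign and side of the threshold with siRagC1, 158 with siRagC2 and 140 between the siRNAs.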
